A study of Rattus norvegicus with 4 samples.

Results

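Synaptic vesicle and SNARE genes were followed through gamma knife irradiation of the rat striatum. The group was formed by gene symbol: synaptotagmins (Syt), syntaxins (Stx), vesicle-associated membrane proteins (Vamp), complexins (Cplx), syntaxin-binding proteins (Stxbp) and Rims genes with a number, together with Sv2a to Sv2c, Syn1 to Syn3, Syp, Snap23, Snap25, Snap29, Snap91, Unc13a, Unc13b and Rab3a to Rab3d. It holds 102 probes for 65 genes, of 23535 probes with 1 annotated gene and 14871 genes in all. Of the 65 genes, 45 had 1 probe, 8 had 2, 9 had 3, 1 had 4 and 2 had 5.

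The study used 4 adult male Wistar rats, and the labels do not divide them between irradiated and control. The rats were anaesthetised with pentobarbital and fixed in a stereotactic frame, and whether the controls were handled in this way is not spelled out. Striata were dissected from single animals, and whether RNA was pooled for hybridisation is not stated. In irradiated rats a central maximum of 60 Gy was given to 1 striatum over 30 min through a 4 mm collimator, and tissue was taken 16 h later. Of the 4 two-colour arrays, 2 compared irradiated left striatum with the left striatum of control rats. The other 2 compared right striatum, un-irradiated but from irradiated rats, with the right striatum of controls.

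The experimental RNA was labelled with Cy5 on array 1 of a side and with Cy3 on array 2. The labels give the pair of arrays the same source names and replicate number, so it was read as a dye swap of the same RNAs, which leaves 1 replicate per side. No p-value is therefore given, and no value carries an error between animals. Values are log2 ratios (experimental over control), averaged over the dye swap and given ± the distance from the average to either array, which is a technical spread; with so few arrays, precision is low. The direction of the ratios is likely and not certain, since it is not stated with the deposited table. With the sign of array 2 turned, the correlation between probes of the same gene was 0.153 for the left and 0.0773 for the right across 5579 genes, against 0.0590 and 0.0432 without turning. These correlations run across genes, which are not independent replicates. Cdkn1a, which p53 induces after DNA damage, was then higher on both sides, with left and right values of 2.01 ± 0.04 and 1.48 ± 0.44. No spot intensities were used, so brightness and background are unknown, a ratio gives no expression level, and the tissue label cannot be checked against marker levels. In dissected tissue, fewer cells of a type and less RNA per cell cannot be told apart.

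Neurons release transmitter when vesicles fuse with the plasma membrane. Fusion is driven by SNARE proteins, which zip a vesicle protein (synaptobrevin, a Vamp) together with a syntaxin and SNAP-25 on the target membrane. Syntaxin-binding proteins and complexins hold and release this complex, Munc13 and RIM proteins prepare vesicles at the active zone, and synaptotagmins sense the calcium that sets off fusion. In the striatum these proteins serve the terminals of cortical, thalamic and dopaminergic axons as well as local inhibitory neurons, whereas most mRNA stays near the cell body. Other members of the same families carry traffic through endosomes, the Golgi and lysosomes in every cell type.

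No gene of the machinery was past 1.5-fold, a log2 ratio of 0.585, in the same direction on the pair of arrays of either side. On the irradiated left, 0 of 65 genes were higher and 0 lower, where 1.18% and 1.03% of all genes were. On the un-irradiated right the counts were again 0 and 0, beside 1.71% and 1.46% of all genes. For the left minus right difference, taken within each dye orientation, they were 0 and 0 beside 2.6% and 2.26%. At these shares about 1 gene or fewer of 65 would pass per direction on each side, and somewhat more in the difference. The zero counts therefore do not set the group apart.

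All 65 gene means lay within 1.5-fold of control on the left, as did 92.9% of all genes. They ran from -0.46 to 0.57, and the median was 0.02, beside 0.00 for all genes. On the right they ran from -1.36 to 0.74, with a median of 0.07 beside -0.01, and 89.2% lay within 1.5-fold, close to the 88.7% of all genes. Both right-hand extremes below -1 came from 1 array: Stx18, a syntaxin of the endoplasmic reticulum, read 0.29 and -3.01, and Cplx4, a complexin known from retina, 1.58 and -4.01. Within 1.2-fold on all 4 arrays were 12 of the 65 genes (18.5%, beside 20.9% of all genes). They were Unc13a, Syt2, Syt5, Syt15, Stx4, Stx8, Vamp1, Vamp3, Vamp7, Snap29, Stxbp3 and Rab3d.

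**Figure D1:**
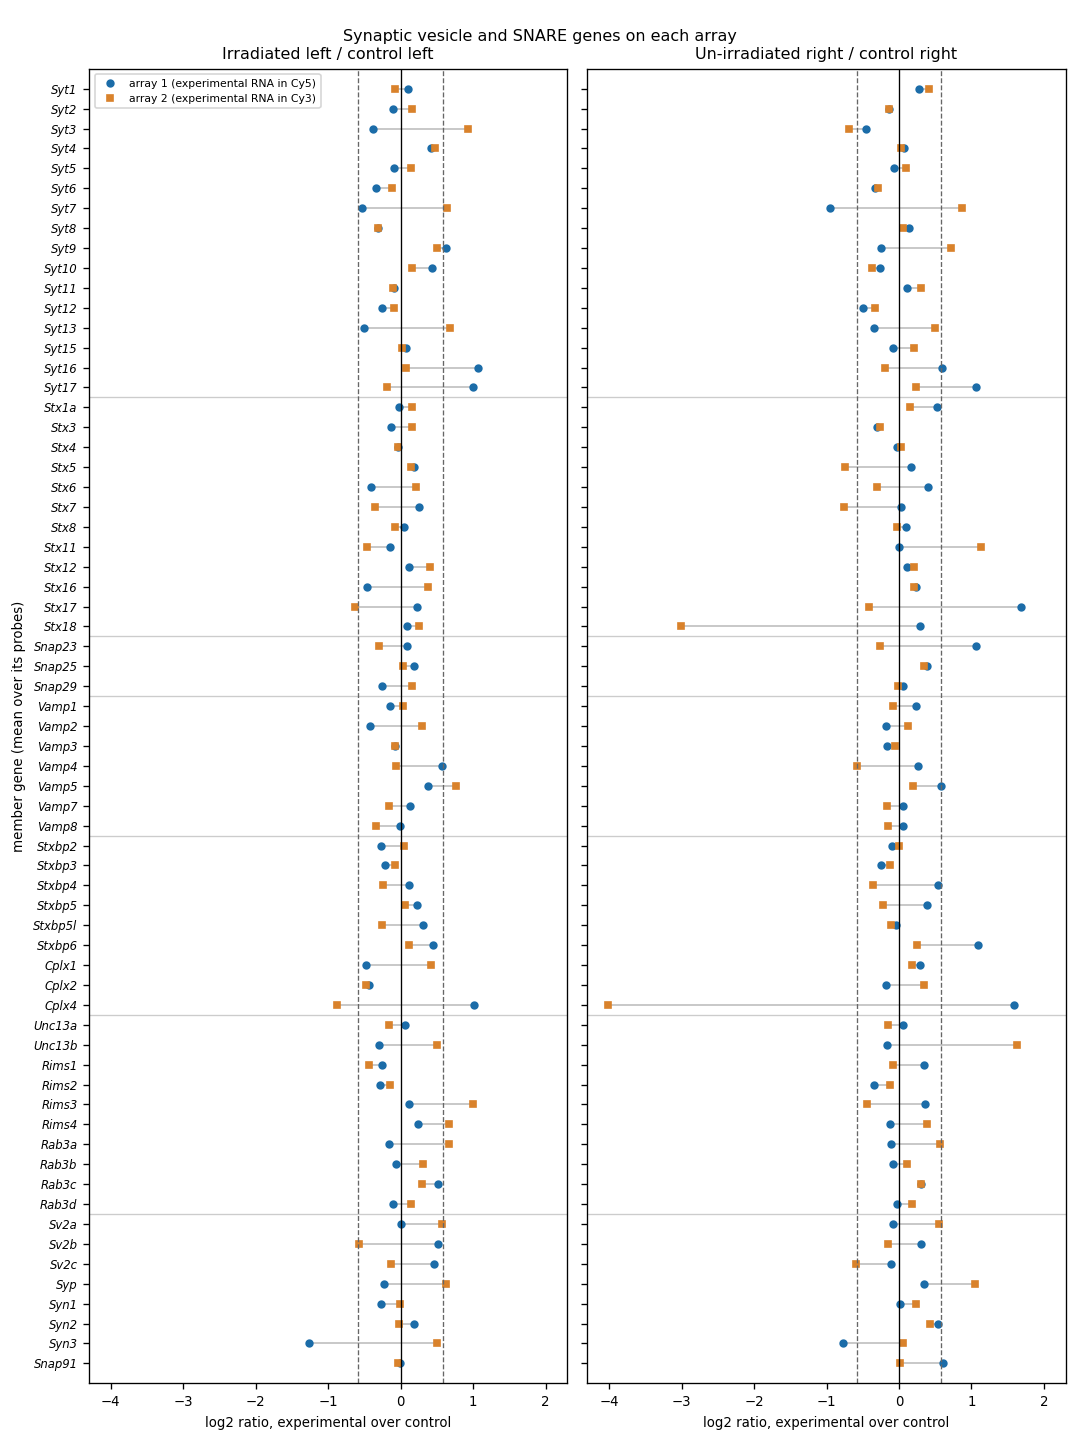
Log2 ratio of experimental over control RNA for each of the 65 genes (mean over its probes), with array 1 as circles and array 2 as squares, for the left in one panel and the right in the other. Dashed lines mark 1.5-fold, and no gene has both of its points beyond the same dashed line.

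At a looser 1.3-fold on both arrays a handful of genes passed. On the left these were 2 higher, Syt4 and Syt9 (2.67% of all genes passed), and 1 lower, Cplx2 (2.51%). On the right Syn2 was higher (3.46% of all genes) and Syt3 lower (3.18%). In the difference between sides Sv2c and Syt10 were higher on the left (5.33%) and Syp lower (4.69%). The share of members that passed was near the background in each direction or under it.

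Among single probes, 0 of 102 were higher past 1.5-fold on the left (1.42% of all probes) and 2 were lower (1.23%). On the right 3 were higher (2.12%) and 0 lower (1.67%). The left minus right difference put 1 probe higher (3.12%) and 3 lower (2.59%). Both lower probes on the left belonged to Snap23, and the 3 higher ones on the right to Syt1, Syt17 and Stx11. In the difference, the higher probe belonged to Vamp4 and the lower ones to Syt17, Stx11 and Stxbp6. Of these probes, only that of Syt17 had arrays of the same sign within both sides. The Vamp4 probe read 2.01 and -0.83 on the left and 1.13 and -2.70 on the right. On the left the Stx11 probe read 1.03 and -2.07 and the Stxbp6 probe 0.93 and -0.53. None of the genes named here passed over the mean of its probes.

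**Figure D2:**
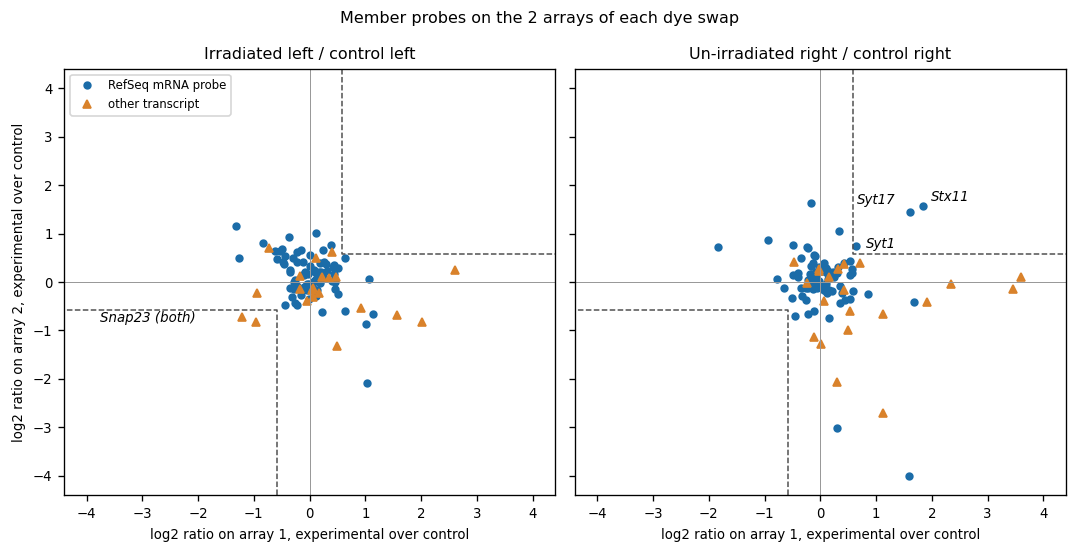
The 102 member probes by their log2 ratio (experimental over control) on array 1 and on array 2, as circles for RefSeq mRNA probes and triangles for probes on other transcripts. The dashed corners enclose probes past 1.5-fold on both arrays: 2 Snap23 probes on the left and probes of Syt1, Syt17 and Stx11 on the right.

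Synaptotagmins, the calcium sensors and their relatives, were measured for 16 genes, with medians of 0.05 on the left and 0.06 on the right. Syt1, the main sensor of fast release in forebrain, averaged 0.11 and -0.08 on the left arrays and 0.28 and 0.41 on the right ones. Its 3 probes averaged -0.12, -0.10 and 0.27 on the left and 0.13, 0.23 and 0.69 on the right. The right-hand values were all above control, and 1 probe, at 0.64 and 0.74, passed. Syt2, the fast sensor of hindbrain and spinal cord, stayed close to control, at 0.03 ± 0.13 and -0.14 on the left and right.

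Syt4, a relative that binds calcium weakly and is known as an activity-induced gene, read 0.42 and 0.48 on the left arrays and 0.06 and 0.03 on the right. Both of its probes were above control on both left arrays, at means of 0.39 and 0.51. Its left value of 0.45 ± 0.03 corresponds to 1.37 times control. Syt9, another sensor of fast release, read 0.63 and 0.51 on the left and -0.24 and 0.72 on the right. Its left arrays were close together, and its right arrays disagreed in sign.

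Syt17, also known as B/K protein, had a RefSeq mRNA probe that read 0.41 and 0.32 on the left and 1.62 and 1.44 on the right. That probe was above control on all 4 arrays, with a right-hand mean of 1.53 ± 0.09. A second probe, on another transcript, read 1.57, -0.69, 0.50 and -0.99 on left arrays 1 and 2 and right arrays 1 and 2. The 2 probes disagreed, and the gene mean on the right was 0.64 ± 0.41.

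A few other synaptotagmins were below control on the right without passing 1.5-fold on both arrays. Syt3, a high-affinity sensor, read -0.38 and 0.93 on the left and -0.46 and -0.69 on the right. Syt12, which binds no calcium, averaged -0.17 ± 0.09 and -0.42 ± 0.08. For Syt6 the means were -0.23 ± 0.11 and -0.31 ± 0.02. All right-hand arrays of these 3 genes were below control. Syt10 was on opposite sides of control, at 0.44 and 0.16 on the left and -0.26 and -0.38 on the right. Syt16, which lacks a membrane anchor, averaged 0.57 ± 0.50 on the left, where array 1 alone was far from control.

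Syt8 and Syt11, neither of which works as a calcium sensor, were on opposite sides of control. Syt8 averaged -0.31 ± 0.0041 on the left and 0.10 ± 0.04 on the right, and Syt11 -0.10 ± 0.0014 and 0.20 ± 0.09, so the left values lay well beyond the distance between their arrays while staying within 1.5-fold. Syt5 and Syt15 had all 4 means between 0.01 and 0.06. For Syt7, a slow high-affinity sensor, and Syt13 the arrays disagreed in sign on both sides.

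The target-membrane SNAREs of the synapse were near control on the left and slightly above it on the right. Snap25, the neuronal SNAP protein, read 0.18 and 0.03 on the left arrays and 0.39 and 0.34 on the right. Its 3 probes averaged 0.18, 0.17 and -0.03 on the left and 0.40, 0.40 and 0.30 on the right, so that all 6 right-hand readings were above control. The right mean of 0.37 ± 0.02 is 1.29 times control. Stx1a, its syntaxin partner, read -0.02 and 0.16 on the left and 0.53 and 0.15 on the right, where both arrays were again above control.

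Snap23, the counterpart of Snap25 found in most cell types, gave the widest disagreement among probes. Its RefSeq mRNA probe averaged -0.03 ± 0.01 on the left and -0.01 ± 0.08 on the right. A pair of probes on other transcripts was lower on the left, at -1.22 and -0.72 and at -0.97 and -0.82. Of the other 2, 1 read 2.61 and 0.25 there, and 1 read 0.03 and -0.15. The 2 lower probes therefore stand against a RefSeq mRNA probe at control. Snap29, a SNAP protein without lipid anchor that acts in membrane traffic, averaged -0.05 ± 0.20 and 0.02 ± 0.04.

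Syntaxins of plasma membrane, endosomes and Golgi had medians of -0.03 on the left and 0.04 on the right over 12 genes. Stx12, of recycling endosomes, had 3 probes with gene means of 0.26 ± 0.15 and 0.16 ± 0.04, above control on all 4 arrays. Stx3, a plasma membrane syntaxin, averaged 0.01 ± 0.15 on the left and -0.28 ± 0.02 on the right. Stx11, which serves granule release in immune cells, averaged -0.30 ± 0.16 and 0.57 ± 0.57. Both probes of Stx11 lie on RefSeq mRNA. On the left 1 of them read 1.03 and -2.07 and the other -1.31 and 1.16, so neither agreed between arrays. The small left spread of the gene mean comes from averaging these opposite readings. On the right the first probe read 1.83 and 1.56 while the other read -1.84 and 0.72. Stx6, of the trans-Golgi network, likewise had right-hand probes from -0.45 to 0.76. Of the other traffic syntaxins, Stx4 and Stx8 had means between -0.04 and 0.04. Stx5 of the Golgi and Stx7 of late endosomes averaged 0.16 ± 0.02 and -0.04 ± 0.30 on the left and -0.29 ± 0.45 and -0.36 ± 0.39 on the right. Stx16 averaged -0.04 ± 0.42 and 0.21 ± 0.01, and Stx17, the syntaxin of autophagosomes, -0.20 ± 0.42 and 0.63 ± 1.05.

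**Figure D3:**
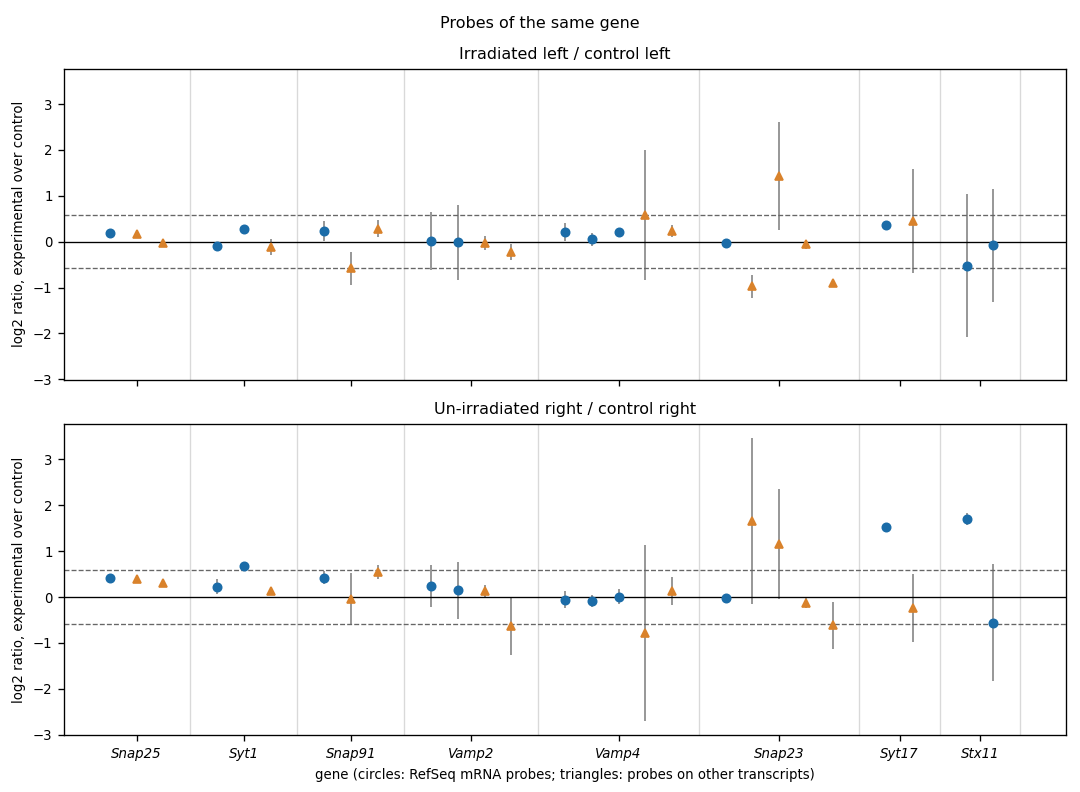
Mean log2 ratio (experimental over control) of each probe for 8 genes with several probes, with the left above and the right below; the bars reach to the 2 arrays of the dye swap, circles are RefSeq mRNA probes and triangles are probes on other transcripts. Snap25 probes lie close together on both sides, whereas those of Snap23, Syt17 and Stx11 are more than 1 apart on at least 1 side.

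Vesicle SNAREs were at control, with medians of -0.06 and -0.05 on the left and right over 7 genes. Vamp2, or synaptobrevin 2, the main vesicle SNARE of forebrain synapses, averaged -0.06 ± 0.36 and -0.03 ± 0.15 over 4 probes. Its 2 RefSeq mRNA probes read -0.83 and -0.63 on left array 1 but 0.81 and 0.64 on left array 2. The same order held on the right, with -0.49 and -0.22 on array 1 and 0.77 and 0.71 on array 2. Array 2 thus exceeded array 1 on both sides. Vamp1, the synaptobrevin of spinal cord and brainstem, averaged -0.06 ± 0.09 and 0.07 ± 0.16. Vamp5, first described in muscle, was above control on all 4 arrays, at 0.38 and 0.76 on the left and 0.58 and 0.19 on the right. The endosomal Vamp4 averaged 0.26 ± 0.32 and -0.16 ± 0.42 over 5 probes. Vamp3, Vamp7 and Vamp8, which act in endosomes and lysosomes, had means between -0.17 and -0.02 on both sides.

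Complexins and syntaxin-binding proteins together had medians of -0.03 and 0.08 over 9 genes. Cplx2, the complexin of many excitatory neurons, read -0.44 and -0.48 on the left and -0.17 and 0.34 on the right. Its left value of -0.46 ± 0.02 is 0.729 times control and was the lowest left mean of the 65 genes. Cplx1, the complexin of many inhibitory neurons, read -0.48 and 0.42 on the left and 0.29 and 0.18 on the right. Its left arrays disagreed, whereas both right ones were above control. Stxbp6, or amisyn, averaged 0.28 ± 0.17 and 0.67 ± 0.42 over 3 probes. The right-hand mean rests on 1 probe that read 3.60 and 0.10, beside a RefSeq mRNA probe at 0.18 ± 0.05. The other syntaxin-binding proteins, Stxbp2, Stxbp3 and Stxbp4, together with Stxbp5 (tomosyn) and Stxbp5l, had left means between -0.15 and 0.14 and right means between -0.19 and 0.09.

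Priming factors of the active zone showed no common direction. Unc13a, or Munc13-1, which vesicles need for priming, averaged -0.05 ± 0.11 and -0.04 ± 0.10. Unc13b, or Munc13-2, read -0.16 and 1.64 on the right, a value carried by array 2. Rims1, the active zone scaffold RIM1, was below control on both left arrays, at -0.26 and -0.44, and read 0.35 and -0.09 on the right. The short relatives Rims3 and Rims4 averaged 0.56 ± 0.44 and 0.45 ± 0.21 on the left and -0.04 ± 0.40 and 0.13 ± 0.26 on the right. Rims2 was below control on all 4 arrays, at -0.21 ± 0.07 and -0.23 ± 0.11.

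Rab3 proteins are the small GTPases that mark secretory vesicles. Rab3a, the main form at synapses, read -0.16 and 0.66 on the left and -0.11 and 0.57 on the right. As with Vamp2, array 2 exceeded array 1 on both sides. Rab3c was above control on all 4 arrays, at 0.51 and 0.29 on the left and 0.31 on each right array. Rab3b and Rab3d averaged 0.12 ± 0.18 and 0.01 ± 0.12 on the left and 0.01 ± 0.10 and 0.07 ± 0.10 on the right.

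Among 8 genes for vesicle membrane proteins, synapsins and AP180, with medians of 0.03 and 0.18, none passed 1.5-fold on both arrays of a side. Syp, or synaptophysin, an abundant vesicle protein, read -0.23 and 0.63 on the left and 0.34 and 1.05 on the right. Syn2, a synapsin that tethers vesicles in the reserve pool, read 0.19 and -0.02 on the left and 0.54 and 0.43 on the right. The right-hand means, 0.70 ± 0.36 for Syp and 0.48 ± 0.05 for Syn2, are 1.62 and 1.40 times control. Both genes were above control on both right arrays and had split signs on the left.

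Syn1 was nearer to control, with left and right means of -0.14 ± 0.14 and 0.13 ± 0.11, and Syn3 averaged -0.38 ± 0.89 and -0.36 ± 0.41. Sv2a, the SV2 form found at nearly all synapses and the target of levetiracetam, averaged 0.28 ± 0.28 and 0.23 ± 0.32. Sv2b, a form of cortex and hippocampus, averaged -0.03 ± 0.55 and 0.08 ± 0.22. Sv2c, the form enriched in basal ganglia, read 0.46 and -0.14 on the left and -0.11 and -0.59 on the right. Only Sv2c of these 3 was below control on both right arrays. Snap91, or AP180, which assembles clathrin on recycling vesicles and is no SNARE despite its symbol, averaged -0.02 ± 0.02 and 0.31 ± 0.29. Its probes averaged 0.23, 0.28 and -0.58 on the left and 0.43, 0.55 and -0.04 on the right.

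Over all 65 genes, 17 (26.2%) were above control on both right arrays and 12 (18.5%) below, beside 21.35% and 21.59% of all genes. On the left 16 (24.6%) were above and 14 (21.5%) below, beside 23.02% and 22.95%. These shares lie near those of all genes. Within both dye orientations the left was below the right for 20 members (30.8%) and above it for 16 (24.6%), beside 27.1% and 29.7% of all genes.

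The sides were further apart in a subset chosen with earlier results of these data known. Taking the 18 core genes of fusion and vesicles that were measured, of 20 listed, 7 were above control on both right arrays and 2 on both left arrays. The shares are 38.9% and 11.1%, beside 21.35% and 23.02% of all genes. Below control on both arrays were 2 on the right and 3 on the left (11.1% and 16.7%, beside 21.59% and 22.95% of all genes). The medians were 0.13 on the right, with 0.15 and 0.17 on the separate arrays, and -0.01 on the left, with -0.13 and 0.03. The 7 were Snap25, Syt1, Stx1a, Syn1, Syn2, Syp and Cplx1. Within both dye orientations the left was below the right for 7 of the 18 genes (38.9%) and above it for 3 (16.7%). The matching shares of all genes were 27.1% and 29.7%. Right-hand means of 17 of the 18 genes were within 1.5-fold of control, all but that of Syp.

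Upstream sequences are shown for Syn2, Syp and Syt1, which were above control on both right arrays, and for Syt4, which was above it on both left arrays. Syt4 was also slightly above control on the right arrays, at 0.06 and 0.03. These genes are a choice from the members, of which 17 were above control on both right arrays. Syn2, Syp and Syt1 all hold the word marked below. The display therefore does not relate the word to a direction, which was not tested. The windows hold the 250 bases before the annotated start and come from RefSeq, build GRCr8. They lie at chr4:149858669-149858918 on the plus strand for Syn2, at chrX:17536450-17536699 on the minus strand for Syp, at chr7:46244214-46244463 on the minus strand for Syt1 and at chr18:23320864-23321113 on the minus strand for Syt4. Capitals mark the word GCGGGGGCG, a form of the site that Egr transcription factors bind, on either strand; it was chosen after the values had been seen.
Syn2: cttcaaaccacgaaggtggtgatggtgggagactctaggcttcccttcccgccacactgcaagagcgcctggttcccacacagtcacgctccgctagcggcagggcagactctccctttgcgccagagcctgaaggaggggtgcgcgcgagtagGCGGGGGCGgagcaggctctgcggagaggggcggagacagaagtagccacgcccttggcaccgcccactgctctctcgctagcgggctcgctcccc
Syp: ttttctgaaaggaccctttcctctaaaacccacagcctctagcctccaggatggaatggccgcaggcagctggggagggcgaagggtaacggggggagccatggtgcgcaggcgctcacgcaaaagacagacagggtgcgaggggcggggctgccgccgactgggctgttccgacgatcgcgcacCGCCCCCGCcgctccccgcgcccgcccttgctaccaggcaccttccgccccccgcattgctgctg
Syt1: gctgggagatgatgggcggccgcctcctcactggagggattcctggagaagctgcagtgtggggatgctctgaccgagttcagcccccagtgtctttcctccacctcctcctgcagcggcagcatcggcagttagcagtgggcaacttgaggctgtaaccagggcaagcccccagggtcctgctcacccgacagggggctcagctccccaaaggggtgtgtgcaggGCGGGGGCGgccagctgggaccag
Syt4: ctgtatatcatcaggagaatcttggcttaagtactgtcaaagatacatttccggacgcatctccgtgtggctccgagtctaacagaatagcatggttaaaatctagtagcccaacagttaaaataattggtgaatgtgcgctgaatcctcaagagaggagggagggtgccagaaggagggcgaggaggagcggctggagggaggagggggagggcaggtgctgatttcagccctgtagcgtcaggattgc

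The word begins 96 bases before the start in Syn2 and 24 in Syt1, and on the minus strand it spans 65 to 57 bases before the start in Syp. No copy lies in the Syt4 window. The windows of Stx1a, Cplx1, Rab3c, Stx12, Stx16 and Syt11, which were also above control on both right arrays, hold none either. For Snap25 no window was at hand. Windows were at hand for 52 of the 65 genes, 57 windows in all, and 8 of them (14.0%) hold the word, against 2.45% of 33365 windows of all genes. The 8 belong to Rab3d, Stxbp5, Syn1, Syn2, Syp, Syt1, Vamp2 and Vamp4, and on the right their gene means ran from -0.16 for Vamp4 to 0.70 for Syp. Of these genes, Rab3d, Stxbp5, Vamp2 and Vamp4 had right arrays of opposite sign. The GC box GGGCGG, which overlaps the word in each of the 3 marked windows, was in 59.6% of member windows and 30.5% of all, and the cAMP response element TGACGTCA in 3.51% and 1.59%. Both strands were searched. Member windows were richer in G and C, with a median of 60.8% against 51.6%, and a match is a description of these letters only.

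Other presynaptic genes, listed apart from the members, were also mostly within 1.5-fold. Among all genes, 1.18% passed as higher and 1.03% as lower on the left, and 1.71% and 1.46% on the right. Of 14 active zone scaffold genes 0 passed on either side, of 22 endocytosis genes 0, and of 10 presynaptic calcium channel genes 0. In lists this short, counts of 0 lie near the shares of all genes. Among 20 genes of SNARE disassembly and further SNAREs, Txlna (alpha-taxilin, a syntaxin binder) was lower on both sides, at -0.70 and -0.69 on the left and -0.59 and -2.66 on the right. Among 35 other vesicle proteins, Cadps, which primes dense-core vesicles, was higher on the right at 0.66 ± 0.05, as was beta-synuclein (Sncb) at 0.66 ± 0.07. Their left values were 0.33 ± 0.03 and 0.42 ± 0.23 and did not pass. Of 11 genes that load or clear transmitter, Slc17a7, the vesicular glutamate transporter of cortical neurons, was the 1 that passed, at 1.21 ± 0.23 on the right against 0.32 ± 0.03 on the left. In the postsynaptic density list of 18 genes, Dlgap2 was lower on the left, at -0.62 ± 0.02. Its median of -0.17 on the left and 0.01 on the right lay below that of the members on both sides.

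**Figure D4:**
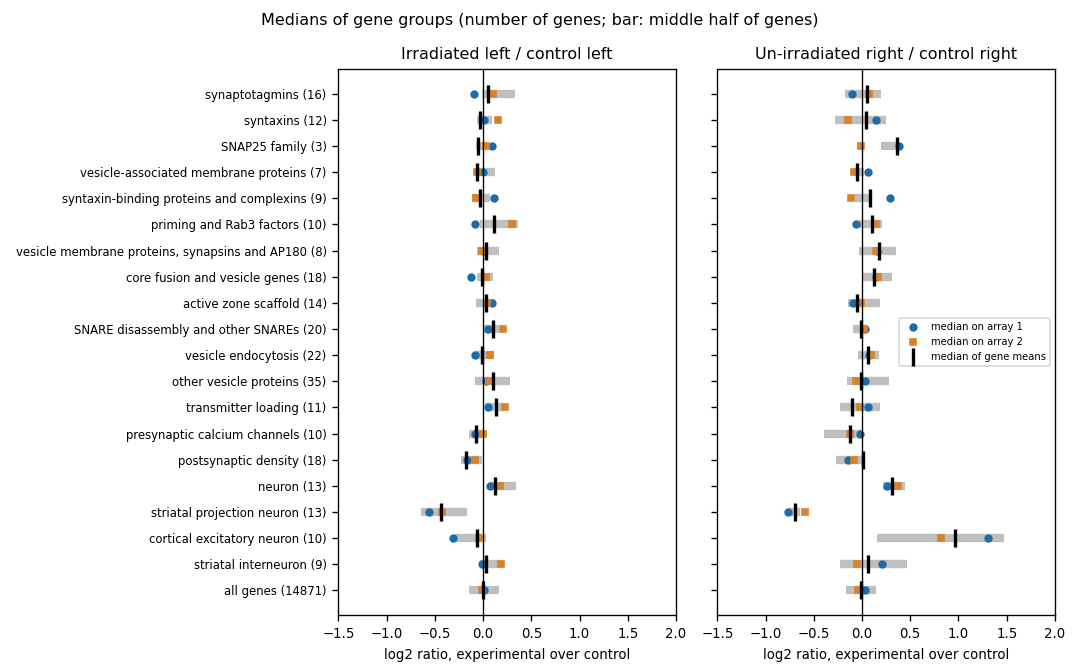
Median log2 ratio (experimental over control) of groups of member genes, other synaptic lists, neuron markers and all genes, with circles and squares for arrays 1 and 2, a black tick for the median of gene means and a grey bar for the middle 50% of genes. On the right the cortical markers lie at 0.96 and the striatal projection neuron markers at -0.69, whereas the synaptic groups lie between -0.12 and 0.37.

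Markers of some neuron types differed from control on the right, where Snap25, Syn2 and Syp were above control, and some on both sides. For comparison, 1.71% of all genes passed as higher and 1.46% as lower on the right, and 1.18% and 1.03% on the left. Above and below control on both arrays were 21.35% and 21.59% of all genes on the right, and 23.02% and 22.95% on the left. Of 10 measured cortical excitatory markers 5 were higher on the right and 0 lower, with array medians of 1.303 and 0.82. Of 13 striatal projection neuron markers 7 were lower and 0 higher, with array medians of -0.77 and -0.59. General neuron markers had a right median of 0.31, were above control on both arrays for 10 of 13 genes, and 1 of them, the RNA-binding protein Elavl4, passed at 0.94 ± 0.07. On the left their median was 0.12, and 7 of 13 were above control on both arrays. The left medians of the cortical and projection neuron markers were -0.06 and -0.43, with 1 gene lower in each list, and 8 of 13 projection neuron markers were below control on both left arrays. Striatal interneuron markers had medians of 0.03 and 0.06. On the right 3 of 9 (33.3%) were above control on both arrays, 2 (22.2%) were below and 1 passed as higher. Meningeal markers were higher on the right for 4 of 9 genes and lower on the left for 3. Glial markers were lower on the left for 2 of 9 astrocyte, 1 of 9 oligodendrocyte and 3 of 10 microglial genes, with medians of -0.34, -0.47 and -0.41. Below control on both left arrays were 7 of 9, 6 of 9 and 8 of 10 of them, and above it 0, 1 and 0. On the right the medians were -0.08, -0.42 and -0.22. There 3 of 9, 7 of 9 and 7 of 10 were below control on both arrays, 1, 1 and 2 were above, and 1 microglial gene passed as lower. Of 8 endothelial markers 0 passed on either side. On the left their median was -0.19, with 7 below control on both arrays and 0 above, and on the right -0.003, with 2 below and 1 above. The part of these cell types in the values of the vesicle genes was not tested.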

How the data were processed

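The 4 arrays were two-colour Agilent rat arrays, and the deposited value table holds 43628 features for each. The software was Agilent Feature Extraction 8.1, per the submitters' processing notes, which give no settings. Its log10 ratio of Cy5 over Cy3 was taken to be what the authors deposited; base, centring and direction are not stated with the table. The deposited array medians were 0.00418 and 0.00444 on the left and 0.00832 and 0.0111 on the right. Values were multiplied to log2, and array 2 of each side was turned.

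Gene names came from the platform annotation in GEO, which can be old, updated by Entrez identifier from the RefSeq table of GRCr8. Of the features 23535 had 1 gene, 48 several and 20045 none, and 23488 were found in RefSeq. A gene's value is the mean over its probes (Python 3.11.15, pandas 2.3.3). A gene or probe was counted past 1.5-fold on both arrays. The rule was tested on simulated data with planted changes far larger than 1.5-fold, so that test does not cover changes near the threshold. Named genes were all that passed, the core genes, the 5 highest and 5 lowest means per side with arrays of the same sign, genes opposite between sides, genes with probes more than 1 apart, and genes of the other lists that passed; further members were described after their values were seen. Thresholds, centring, probe choice, direction and each array alone were varied. Members and lists were chosen with earlier results of these data known.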

Additional observations from a re-analysis of the deposited data

Results flagged for a closer look

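In 5 of the 65 genes both left arrays lay on one side of control and both right arrays on the other, and the difference was not tested. This is 7.69% of the members, beside 6.83% of all genes. The left minus right difference was 0.62 for Syt10, -0.41 for Syt8, -0.33 for Snap91, -0.30 for Syt11 and -0.27 for Syn1. Syt10 was the only 1 of these above control on the left, at 0.30 against -0.32 on the right. Syt8 averaged -0.31 and 0.10, Snap91 -0.02 and 0.31, Syt11 -0.10 and 0.20, and Syn1 -0.14 and 0.13 on the left and right. The opposite signs of Snap91 rest on 1 of its 3 probes: its left value was 0.23 with RefSeq mRNA probes or the median over probes and 0.28 with the probe of smallest spread, on the same side of control as the right.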

How the results depend on the processing

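No paired analysis was possible because each side has 1 replicate and nothing was tested. Counts of 0 genes past 1.5-fold, in both directions on both sides and in the difference, also held with arrays centred and with the median over probes. The median equals the mean for the 45 genes with 1 probe and the 8 with 2, so that setting could change few genes. At 2-fold, counts of 0 follow from those at 1.5-fold. The probe with the smallest spread put 2 genes higher on the right, Stx11 and Syt17 (2.25% of all genes passed). It put 1 lower in the difference, Syt17 (2.85%). RefSeq mRNA probes put 1 (Syt17) in each of those places (1.83% and 2.25% of all genes). At 1.3-fold the left side had 2 genes higher and 1 lower, the right 1 and 1, and the difference 2 and 1. At 1.3-fold the probes were 2 higher on the left, and on the right 6 higher and 1 lower; at 2-fold 0 probes were lower on the left. Without turning array 2, 1 gene was higher on the left (Cplx4), and 1 higher (Cplx4) and 1 lower (Syt7) on the right. The matching shares of all genes were 3.36%, 4.71% and 2.74%. With 1 array alone, which includes the dye effect, the left side had 4 to 8 genes higher and 1 to 2 lower, the right 5 to 7 and 2 to 6, and the difference 2 to 5 and 3 to 8. Of all genes, 7.05% to 11.4% were then higher and 8.09% to 9.17% lower on the left, 8.87% to 12.5% and 8.16% to 15.3% on the right, and 9.04% to 13.9% and 8.94% to 10.2% in the difference. Of probes, the left then had 10 to 13 higher and 9 to 10 lower and the right 10 to 14 and 4 to 13. Shares over all probes are not at hand for these counts or the 1.3-fold and 2-fold ones, so they stand without a background. The left median of 0.0154 became 0.0452 with the smallest-spread probe or RefSeq mRNA probes and ran from -0.0053 to 0.0441 with single arrays. The right median of 0.0728 became 0.0220 without turning and ran from 0.0198 to 0.0597. Of 70 values of named genes 45 moved by more than their array spread without turning, 11 with the smallest-spread probe, 7 with RefSeq mRNA probes, 6 with the median over probes and 2 with centring. Membership was 65 genes with symbols as annotated. The causes of these shifts were not tested.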

Other observations

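Of the 102 member probes 28 (27.5%) had their arrays on opposite sides of control on both the left and the right, and in the same order on both, beside 30.1% of all probes. The RefSeq mRNA probes of Vamp2 are examples, as are Syt7, at -0.53 and 0.64 on the left and -0.95 and 0.86 on the right, and Syt13, at -0.50 and 0.68 and at -0.35 and 0.50.

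The 21 member probes that read transcripts outside RefSeq mRNA differed more between arrays. Their median distance of either array from the mean was 0.19 on the left and 0.50 on the right, against 0.14 and 0.14 for the 81 RefSeq mRNA probes. Over all probes the medians were 0.27 and 0.31 against 0.15 and 0.16.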
